A study of Bos taurus with 8 samples.

Results

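Reference genes are the denominators of qPCR. The level of a target is divided by that of a gene taken to be constant, so any change of the reference moves every target by the same factor. Here 8 genes in wide use for this purpose were looked for on arrays of bovine muscle cells, *GAPDH*, *HPRT1*, *TBP*, *YWHAZ*, *SDHA*, *PPIA*, *B2M*, and *TFRC*. A probe was taken as belonging to a gene when its RefSeq accession carried that symbol in the RefSeq gene table of assembly ARS-UCD2.0. Of these 8 genes, 4 were found with 6 probes, of 7788 genes named on the array in all: *GAPDH* (3 probes), *TBP*, *SDHA*, and *B2M* (1 probe each). *HPRT1*, *YWHAZ*, *PPIA*, and *TFRC* are not analysed here.

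The cells were primary muscle cell cultures from the semitendinosus muscle of 15-month-old bulls. LIM stands for Limousin and HER for Hereford, both beef breeds, and HF for Holstein-Friesian, the dairy breed that served as the control. The cells were untreated and were frozen while proliferating, at 80% confluence. Each of 8 arrays carried RNA of a beef bull culture in one color and RNA of an HF culture in the other, 4 arrays with LIM in Cy5 and HF in Cy3, and 4 with HER in Cy3 and HF in Cy5. All values are log2 ratios of beef breed over HF, from the red to green log ratio of the scanner software, with the sign turned on the HER arrays. A mean is given ± SD of the 4 arrays of its comparison (n = 4). The study had 4 bulls of each breed, so LIM and HER were compared with the same HF bulls, and which HF bull lay on which array was not given in the sources used here. LIM and HER were on separate slides with opposite dyes, so a difference between them cannot be told apart from slide and dye.

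The genes have separate duties in the cell. *GAPDH* encodes glyceraldehyde-3-phosphate dehydrogenase, a glycolytic enzyme, and it was the reference of the qPCR in this study. *TBP* encodes the TATA-binding protein, the DNA-binding subunit of the transcription factor TFIID. *SDHA* encodes the flavoprotein subunit of succinate dehydrogenase, which works both in the citric acid cycle and in the respiratory chain. *B2M* encodes beta-2-microglobulin, the light chain of MHC class I molecules, which present peptides at the cell surface and whose genes respond to interferon in many cell types.

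Per channel, 68.8% to 85.2% of probes read well above background, and 17620 of 21475 probes were tested. All 6 reference gene probes were well above background in 16 of 16 channels and none was saturated. The spread between spots of one probe within an array was at most 0.13 on the log2 scale. The correlation of log2 ratios across probes ranged from 0.345 to 0.779 between LIM arrays and from 0.331 to 0.652 between HER arrays. LIM replicate 4 stood apart, with an array weight of 0.299, where 1 is the average. HER replicate 3 had single red local backgrounds of up to 775167 against a median of 37. The precision is limited by the 4 arrays of each comparison. A gene was called changed at a Benjamini-Hochberg adjusted p of at most 0.05 in limma, over all probes tested, with a fold change of at least 1.3. It was called stable only if the whole 95% confidence interval of its ratio lay within 1.3-fold, that is within 0.379 of zero on the log2 scale.

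By its brightest probe, *B2M* was the only one of the 4 genes called changed, at 1.82-fold higher in LIM than in HF. No gene was called in HER, and none met the criterion of stability in either comparison. Over the array, 34.4% of probes were called in LIM (16.1% higher and 18.3% lower) and 24.4% in HER (10.4% higher and 14% lower), while 8.12% of probes in LIM and 9.3% in HER had an interval within 1.3-fold. The 1 called gene of 4 did not exceed the share over all probes. Over the 6 probes, 2 were called in LIM, *B2M* and the second probe of *GAPDH*. *SDHA* had means above zero in both comparisons and *TBP* had means below it under every normalization tried. *GAPDH* probe 1 had means above zero too, but with normexp background correction and loess in place of the scanner software's own ratios the HER mean turned to -0.28, and that of probe 2 to -0.31. When outlying local backgrounds were first replaced they were 0.24 and 0.17, and without background subtraction 0.25 and 0.18.

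**Figure D1:**
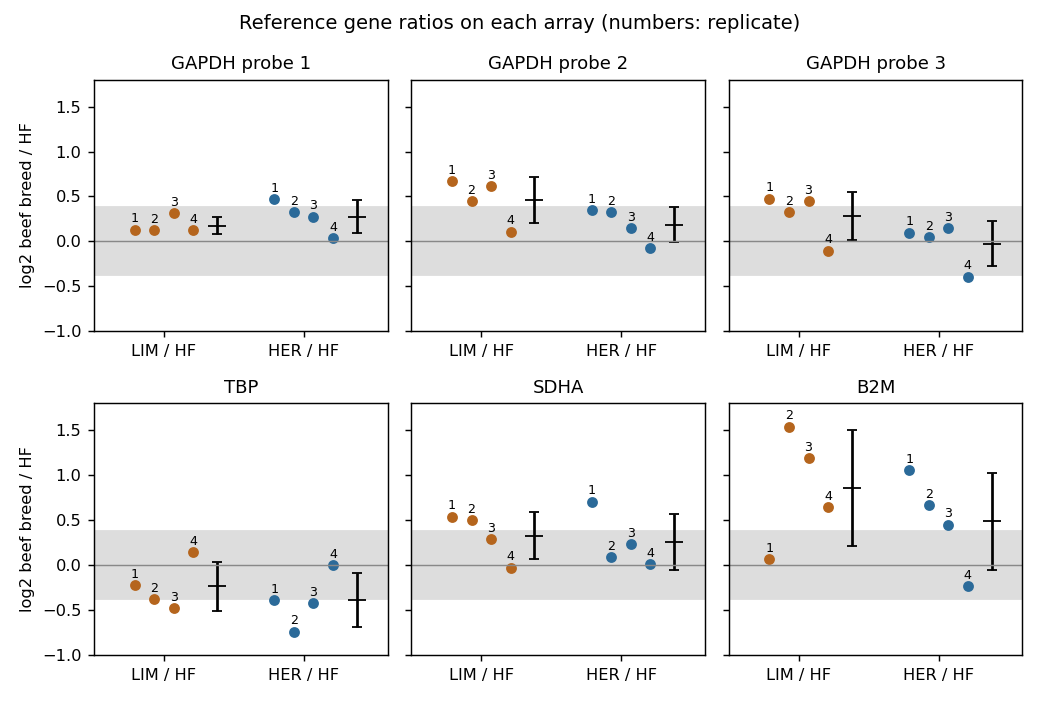
Log2 ratio of beef breed over HF (vertical axis) for each of the 6 probes on each array, with LIM arrays in brown and HER arrays in blue, the replicate number above each point, and the mean with its SD (n = 4) in black. The grey band marks ratios within 1.3-fold. The *B2M* points spread from -0.23 to 1.54, and those of *GAPDH* probe 1 from 0.03 to 0.47.

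*GAPDH* was read by 3 probes, all designed on NM_001034034. On probe 1 (A_73_100172, the brightest), the log2 ratios of LIM replicates 1 to 4 were 0.13, 0.13, 0.32, and 0.12, and those of HER replicates 1 to 4 were 0.47, 0.32, 0.28, and 0.03. The beef breed was the higher one on all 8 arrays, and the ratios of LIM lay within the range of those of HER. The mean was 0.17 ± 0.10 in LIM, a 1.13-fold difference that was not called (limma adjusted p = 0.224, 95% interval -0.07 to 0.41). In HER it was 0.28 ± 0.18, 1.21-fold (limma adjusted p = 0.086, 95% interval 0.04 to 0.52). In a model with one beef effect and a dye term over the 8 arrays, probe 1 had a beef effect of 1.17-fold (limma adjusted p = 0.0354, 95% interval of the fold 1.04 to 1.31), below the fold threshold. The beef effect of that model is the average of the LIM and HER means. That model takes the 8 arrays as independent, although the HF bulls were shared.

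The other probes of *GAPDH* gave a different picture of LIM and HER. On probe 2 (A_73_100878), the log2 ratios of LIM replicates 1 to 4 were 0.67, 0.45, 0.62, and 0.11, and those of HER replicates 1 to 4 were 0.35, 0.32, 0.15, and -0.08. The LIM mean of 0.46 ± 0.25 was called, at 1.38-fold (limma adjusted p = 0.0237), and the HER mean of 0.19 ± 0.20 was not (limma adjusted p = 0.307). The call in LIM was lost without LIM replicate 1 (0.39), 2 (0.47), or 3 (0.41), and also with normexp and loess on the backgrounds as measured (0.58, limma adjusted p = 0.164) and with the methods' t-test (adjusted p = 0.123). On probe 3 (A_73_105495), the log2 ratios were 0.48, 0.33, 0.45, and -0.10 in LIM and 0.10, 0.05, 0.15, and -0.39 in HER. In each breed 3 of 4 arrays lay above zero. The LIM mean of 0.29 ± 0.27 was not called (limma adjusted p = 0.136). The HER mean was -0.03 ± 0.25, with a 95% interval of -0.34 to 0.29, so probe 3 met the criterion of stability in HER (limma adjusted p = 0.91). Over both breeds, the beef effect of probe 3 was 1.1-fold with an interval within 1.3-fold, as for 19.3% of all probes. Without HER replicate 4 the HER mean was 0.10, and with normexp and loess on the backgrounds as measured it was -0.34 (limma adjusted p = 0.375).

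Probes 2 and 3 moved together from array to array, and probe 1 stood apart from both. The difference between probes 2 and 3 had an SD of 0.10 over the 8 arrays, whereas that between probes 1 and 2 had an SD of 0.25 and that between probes 1 and 3 one of 0.28. Probe 1 was below probe 2 by a mean log2 of -0.29 on the LIM arrays and above it by 0.09 on the HER arrays. It was below probe 3 by -0.11 on the LIM arrays and above it by 0.30 on the HER arrays. The LIM minus HER difference was -0.10 on probe 1 (limma adjusted p = 0.805, 95% interval -0.44 to 0.24), which turned to 0.62 with normexp and loess, and to 0.09 both with outlying backgrounds replaced and without background subtraction. It was 0.27 on probe 2 (limma adjusted p = 0.532), and 0.31 on probe 3 (limma adjusted p = 0.51, 95% interval -0.14 to 0.76). Only 0.233% of all probes were called for this difference, and none of the 6 probes was.

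*TBP* leaned in the direction opposite to the other genes. On its probe (A_73_117383, NM_001075742), the log2 ratios of LIM replicates 1 to 4 were -0.22, -0.38, -0.48, and 0.14, and those of HER replicates 1 to 4 were -0.39, -0.74, -0.43, and 0.00. It was below zero on 6 of 8 arrays and at 0.00 on HER replicate 4, and the ranges of LIM and HER overlapped. The mean was -0.23 ± 0.27 in LIM (limma adjusted p = 0.247, 95% interval -0.57 to 0.10) and -0.39 ± 0.30 in HER (limma adjusted p = 0.0865, 95% interval -0.73 to -0.05). The HER mean passed at an unadjusted p of 0.0294, as did 34.8% of all probes in HER, and with array weights (-0.42, limma adjusted p = 0.0386). The beef effect of the model with a dye term was -0.31 (limma adjusted p = 0.0384), which did not reach 1.3-fold. LIM and HER differed by 0.15 (limma adjusted p = 0.788, 95% interval -0.33 to 0.63).

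*SDHA* had ratios above zero on most arrays, without a call. On its probe (A_73_110324, NM_174178), the log2 ratios of LIM replicates 1 to 4 were 0.54, 0.50, 0.29, and -0.03, and those of HER replicates 1 to 4 were 0.71, 0.08, 0.24, and 0.01. Only LIM replicate 4 was below zero, and HER replicate 1 was the highest array. The mean was 0.33 ± 0.26 in LIM, 1.25-fold (limma adjusted p = 0.117, 95% interval -0.01 to 0.67), and 0.26 ± 0.31 in HER, 1.2-fold (limma adjusted p = 0.22, 95% interval -0.08 to 0.60). Neither was called. Without LIM replicate 4, the LIM mean of 0.44 was called (limma adjusted p = 0.0496). Without HER replicate 1, the HER mean fell to 0.11 (limma adjusted p = 0.63). The difference between LIM and HER was 0.07 (limma adjusted p = 0.917, 95% interval -0.41 to 0.55).

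*B2M* had the widest spread of the 4 genes. On its probe (A_73_116322, NM_173893), the log2 ratios of LIM replicates 1 to 4 were 0.06, 1.54, 1.19, and 0.65, and those of HER replicates 1 to 4 were 1.06, 0.67, 0.45, and -0.23. Of 8 arrays, 7 lay above zero, with LIM replicate 1 close to zero and HER replicate 4 below it. The LIM mean of 0.86 ± 0.65 was called, at 1.82-fold (limma adjusted p = 0.0353, 95% interval of the fold 1.19 to 2.76). The HER mean of 0.49 ± 0.54, 1.4-fold, was not (limma adjusted p = 0.203, 95% interval of the fold 0.92 to 2.13). The beef effect of the model with a dye term was 0.67, 1.59-fold (limma adjusted p = 0.0183), where 38.1% of all probes were called. The LIM call lay near the threshold. It was lost without LIM replicate 2 (0.63, limma adjusted p = 0.138) or 3 (0.75, limma adjusted p = 0.131), without LIM replicate 4 (0.93, limma adjusted p = 0.0513), and without HER replicate 2 or 3, which share the estimate of the variance (0.86, limma adjusted p = 0.0514 and 0.0512). The beef effect was lost without HER replicate 1 (0.58, limma adjusted p = 0.0514) or LIM replicate 3 (0.62, limma adjusted p = 0.0516). LIM and HER differed by 0.37, with a 95% interval of -0.48 to 1.23 (limma adjusted p = 0.7).

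**Figure D2:**
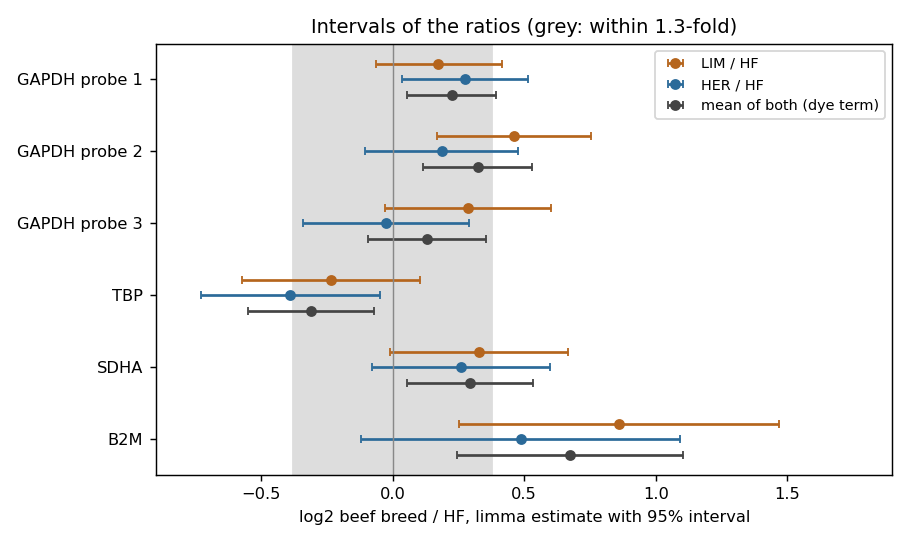
Limma estimates of the log2 ratio of beef breed over HF (horizontal axis) with 95% confidence intervals, for LIM, HER, and their mean in the model with a dye term, by probe. Intervals wholly inside the grey band, within 1.3-fold, belong to *GAPDH* probe 3 in HER and in the mean of both, and to no other probe.

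In both comparisons, the array with replicate number 4 lay at one end of the ratios of most probes. It gave the lowest ratio of *GAPDH* probes 1, 2, and 3 and of *SDHA*, and the highest ratio of *TBP*, among the LIM arrays and again among the HER arrays. For *GAPDH* probe 1 in LIM the gap was small, with 0.122 on replicate 4 beside 0.126 and 0.13 on replicates 2 and 1. *B2M* did not share this in LIM, where replicate 1 was lowest (0.065) and replicate 4 had 0.645. In HER its lowest ratio was on replicate 4 (-0.233). The labels do not say that a number links arrays of LIM and HER. On LIM replicate 4 the 8 fibroblast markers had a median log2 ratio of 0.47 and on HER replicate 4 one of 0.54, against 1.29 to 2.45 on the other arrays. The 8 markers of dividing cells had 0.39 and -0.23 there, against -1.34 to -0.52 on the others. The part of these in the reference gene ratios was not tested.

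The level of each gene also varied between cultures of one breed. As scanned, the median signal of *B2M* in LIM replicates 1 to 4 was 43920, 113900, 134100, and 112200, beside 15560, 13480, 11070, and 18190 in the HF channels of the same arrays, so LIM replicate 1 was set apart by its LIM channel. In HER replicates 1 to 4 it was 49660, 25450, 25800, and 25740, beside 19070, 22310, 31310, and 41060 in HF, with HER replicate 1 the brightest in HER and HER replicate 4 the brightest in HF. Over all 16 channels, the signal of *GAPDH* probe 1 ran from 31320 to 250200, that of *SDHA* from 10710 to 69680, and that of *TBP* from 684 to 3457. These signals also carry the efficiency of the dye and the brightness of the array. Each channel was set relative to the 75th percentile of its probes on the log2 scale. The SD over 4 arrays for *GAPDH* probe 1 was 0.18 in LIM, 0.12 in HER, and 0.09 and 0.15 in the HF channels of the LIM and HER arrays. For *TBP* it was 0.19, 0.14, 0.09, and 0.15, and for *SDHA* 0.07, 0.18, 0.18, and 0.18, in the same order. For *B2M* it was 0.49 in LIM, 0.30 in HER, and 0.26 and 0.34 in HF, the highest of the 6 probes in each but the HF channel of the LIM arrays, where *GAPDH* probe 2 had 0.27. The relative levels of *B2M* ran from 4.04 to 5.13 over the LIM cultures.

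To order the genes by distance from HF, the root mean square of the log2 ratio was taken over the 8 arrays, which counts both a shift of the mean and the spread. It was 0.26 for *GAPDH* probe 1, 0.39 for *SDHA*, 0.41 for *TBP*, and 0.87 for *B2M*, against a median of 0.55 over all probes tested. Of all probes, 11.2% lay below *GAPDH* probe 1, 29% below *SDHA*, 32% below *TBP*, and 74.2% below *B2M*. *GAPDH* probes 2 and 3 had 0.40 and 0.30. The SD within a comparison, which leaves the shift out, was 0.14 for *GAPDH* probe 1 and 0.59 for *B2M*, with *SDHA* and *TBP* at 0.29 each.

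The genes were then set against each other on the same array, which removes a shift common to all its probes. It does not remove an error that depends on brightness, and *TBP* was dimmer (mean signal 1551) than *GAPDH* probe 1 (114540). Among the 6 pairs, *GAPDH* (probe 1) and *SDHA* kept the most even distance, with an SD of their difference of 0.24, and *TBP* and *B2M* the least even, with 0.75. The mean SD over the 3 pairs of a gene was 0.39 for *GAPDH*, 0.41 for *SDHA*, 0.53 for *TBP*, and 0.60 for *B2M*. *TBP* was lower than *GAPDH* by a mean of 0.54 and on 7 of 8 arrays (exact two-sided sign-flip test p = 0.0156, adjusted over 6 pairs 0.0469). It was lower than *SDHA* by 0.60 on 7 of 8 arrays (exact sign-flip p = 0.0234, adjusted 0.0469) and lower than *B2M* by 0.98 on 7 of 8 arrays (exact sign-flip p = 0.0156, adjusted 0.0469). *GAPDH* was below *B2M* by 0.45 (exact sign-flip p = 0.0469, adjusted 0.0703) and *SDHA* was below *B2M* by 0.38 (exact sign-flip p = 0.0938, adjusted 0.112). *GAPDH* and *SDHA*, neighbors in the order, differed by -0.07 (exact sign-flip p = 0.484). The smallest p this test could give was 0.00781, and it takes arrays with shared HF bulls as independent. It was run on the scanner software's ratios only. With normexp and loess on the backgrounds as measured, *GAPDH* probe 1 had -0.28 and *TBP* -0.18 in HER. The beef effects were then 0.03 and -0.17. With outlying backgrounds replaced, the HER means were 0.24 and -0.31, and the beef effects 0.28 and -0.23. Each array's mean over the 4 genes lay between -0.05 (HER replicate 4) and 0.46 (HER replicate 1).

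A further list of 32 genes used as references in cattle and other species was looked up, and 24 of them were on the array and tested. In LIM, 5 were higher and 2 lower, and in HER 3 were higher and 1 lower, where 34.4% of all probes were called in LIM and 24.4% in HER. The median log2 ratio of the list was 0.05 in LIM and -0.04 in HER, beside -0.01 and -0.05 over all probes tested. The largest changes belonged to *GUSB*, a lysosomal glucuronidase, with 1.69 ± 0.47 in LIM (limma adjusted p = 0.00098) and 1.79 ± 0.43 in HER (limma adjusted p = 0.00273). *ALAS1*, the first enzyme of heme synthesis, was higher by 1.03 in LIM and 0.84 in HER (limma adjusted p = 0.00369 and 0.015), and *SF3A1*, a splicing factor subunit, was lower by -0.46 and -0.62 (limma adjusted p = 0.0292 and 0.0154). *ACTB*, cytoplasmic beta-actin and another frequent reference, was singled out after its values were seen. It was 0.41 in LIM (limma adjusted p = 0.035, called) and 0.11 in HER (limma adjusted p = 0.548).

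The lowest spread over the 8 arrays in this list was found for *RPS23*, *RPS15A*, and *ATP5F1B*. *RPS23*, a protein of the small ribosomal subunit, lay at 0.00 ± 0.12 in LIM and 0.07 ± 0.12 in HER. It was the one gene of the 24 whose interval lay within 1.3-fold in both comparisons, as it did for 3.17% of all probes. With normexp and loess on the backgrounds as measured its HER mean was -0.51, and 0.05 with outlying backgrounds replaced. *RPS15A*, of the same subunit, was 0.24 and 0.35, and *ATP5F1B*, a subunit of ATP synthase, was -0.17 and -0.11. Ranked by root mean square among these 28 genes, *GAPDH* by its probe 1 (0.26) was in place 9. *SDHA* (0.39) was in place 19, *TBP* (0.41) in place 20, and *B2M* in place 26, ahead of *ALAS1* and *GUSB* only. The place of *GAPDH* depends on the probe, as its probes 2 and 3, which were not ranked, had 0.40 and 0.30. The ranking was made on the scanner software's ratios only. With normexp and loess on the backgrounds as measured, *GAPDH* probe 1 had 0.34 in LIM and -0.28 in HER.

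**Figure D3:**
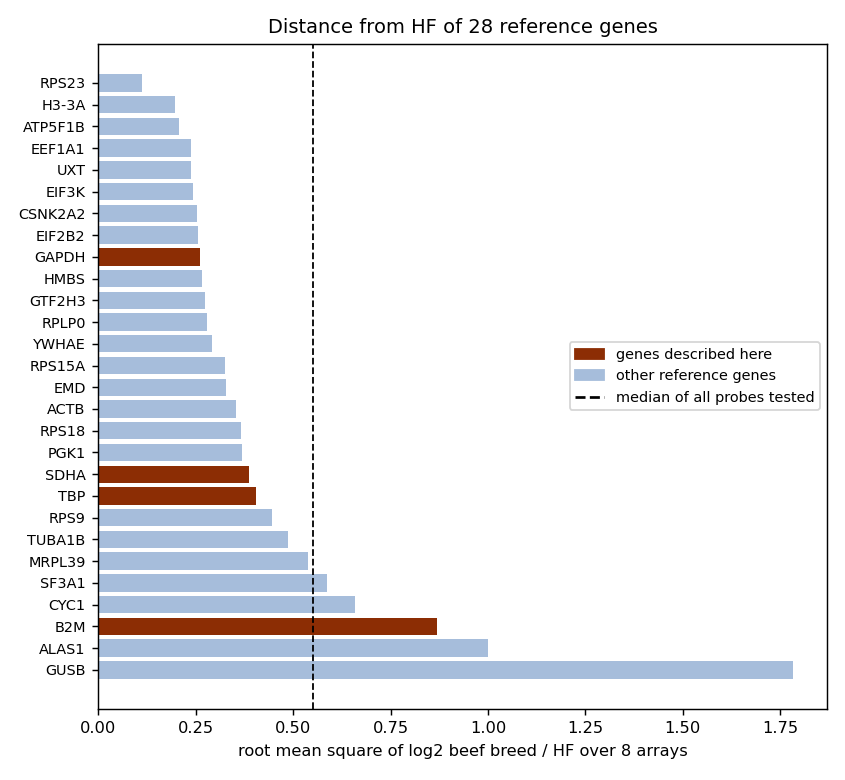
Root mean square of the log2 ratio of beef breed over HF over the 8 arrays (horizontal axis) for 28 reference genes, with *GAPDH* (probe 1), *SDHA*, *TBP*, and *B2M* in dark red and the 24 others in blue. The dashed line is the median of all probes tested (0.55), and *B2M* at 0.87 is the one dark bar beyond it. Only the scanner software's ratios were used.

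Around each gene, its pathway was described by a list. From these lists and the list of reference genes, 16 genes called in both comparisons are named with their values. With normexp and loess on the backgrounds as measured, all 16 of their HER calls and 2 of their 16 LIM calls were lost (*PGAM2* in HER 0.94, *ENO3* 0.88, and *GUSB* 0.97, limma adjusted p = 0.325, 0.177, and 0.213). With outlying backgrounds replaced, 1 of the 32 calls was lost. With the methods' t-test, and an adjustment over all probes that was added here and is not in the methods, 30 of the 32 were lost. With 1 array left out 0 to 12 were lost, the most without HER replicate 2. Of 14 measured glycolysis genes, 2 were higher and 1 lower in LIM, and 2 higher and 1 lower in HER, no more than the 34.4% and 24.4% called over all probes, with medians of 0.01 and 0.13. The enzymes of mature muscle *PGAM2* (phosphoglycerate mutase, 2.83 in LIM and 2.70 in HER, limma adjusted p = 0.00155 and 0.0049) and *ENO3* (enolase, 1.56 and 1.24, limma adjusted p = 0.000884 and 0.0049) were the ones that rose, and *ALDOA* (aldolase) fell by 0.67 and by 0.44 (limma adjusted p = 0.00177 and 0.0162). Of 8 genes of TFIID and related factors, 2 were higher in LIM and 1 in HER, and none was lower. *TAF13*, a TBP-associated factor, was higher by 0.51 and 0.52 (limma adjusted p = 0.0146 and 0.0211), on 8 of 8 arrays, the opposite direction to the *TBP* means.

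Of 13 genes of succinate dehydrogenase and the citric acid cycle, 3 were lower in LIM and none higher, and in HER 1 was higher and 1 lower, fewer than the 34.4% and 24.4% called over all probes. *DLST*, a subunit of the oxoglutarate dehydrogenase complex, was lower by -1.01 in LIM and -0.56 in HER (limma adjusted p = 0.00165 and 0.0262). Of the other subunits of succinate dehydrogenase, singled out for their complex, *SDHB* had 0.37 and 0.28, *SDHC* 0.10 and -0.14, and *SDHD* -0.53 and -0.49. *SDHD* in LIM alone was called among these (limma adjusted p = 0.0298). The subunits of one complex thus did not share a direction in their means.

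The antigen presentation list, whose products work with beta-2-microglobulin, had 12 tested genes. In LIM 7 were higher and none lower, and in HER 4 were higher and 2 lower, beside 16.1% of all probes higher and 18.3% lower in LIM and 10.4% and 14% in HER. The medians of the list were 0.76 and 0.60. *PDIA3* (1.52 and 1.65, limma adjusted p = 0.00176 and 0.00381) and *TAPBP* (1.21 and 1.09, limma adjusted p = 0.0167 and 0.0339) act in peptide loading. *FCGRT* (0.86 and 1.00, limma adjusted p = 0.0353 and 0.0288) encodes the heavy chain of a receptor that pairs with beta-2-microglobulin. The 2 class I heavy chain genes measured, singled out as direct partners, were *BOLA* with 1.32 in LIM and 0.46 in HER and *JSP.1* with 1.13 and 0.72. Both were called in LIM only (limma adjusted p = 0.014 and 0.0333), and since class I genes are much alike in sequence, their probes may read more than one of them. The immunoproteasome subunit genes *PSMB8* and *PSMB9* were lower in HER, at -1.29 and -1.64 (limma adjusted p = 0.00785 and 0.0228), and had -0.59 and -0.77 in LIM. The median of the list ran from -0.14 on HER replicate 4, where *B2M* was also lowest, to 1.29 on HER replicate 1, and on LIM replicate 1, where *B2M* was at 0.06, it was 0.91.

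The families of the 4 genes that were not read were present in part. Over all probes, 34.4% were called in LIM and 24.4% in HER, the shares to set beside the counts below. Among 4 other 14-3-3 genes, relatives of *YWHAZ*, none was called in LIM and 2 were lower in HER, with medians of 0.00 and -0.13. Among 7 tested cyclophilins and related genes, relatives of *PPIA*, 2 were higher in LIM and 1 in HER, and *PPIB*, the cyclophilin of the endoplasmic reticulum, was 1.21 and 0.85 (limma adjusted p = 0.00561 and 0.0329). Of 14 genes of purine salvage and synthesis, the pathway of *HPRT1*, 1 was higher and 3 lower in each comparison, near the 34.4% and 24.4% called over all probes. *ADSL*, adenylosuccinate lyase, had -0.76 and -0.82 (limma adjusted p = 0.00108 and 0.00288), and *PRPS1*, which makes phosphoribosyl pyrophosphate, had -0.75 and -0.64 (limma adjusted p = 0.0135 and 0.0342). Of 15 genes of iron uptake and storage, around the transferrin receptor gene *TFRC*, 1 was higher and 4 lower in LIM. In HER 2 were lower. These counts were no more than the 34.4% and 24.4% called over all probes. The largest ratios of the list were higher ones, though not called in both comparisons. *FTH1* had 1.65 and 1.05 (called in LIM only, limma adjusted p = 0.0211), *FTL* 1.095 and 1.21, and *SLC40A1* 1.11 and 1.1. For the beef effect 3 genes of the list were higher and 3 lower, where 38.1% of all probes were called. *FTMT*, mitochondrial ferritin, had -0.91 and -0.84 (limma adjusted p = 0.0234 and 0.042), and *PCBP2*, an RNA-binding protein that also carries iron, had -0.67 and -0.50 (limma adjusted p = 0.0119 and 0.0473).

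Markers of cell types also differed between beef and HF cultures. The counts below stand beside 16.1% of all probes higher and 18.3% lower in LIM, and 10.4% and 14% in HER. All 8 myogenic markers tested were well above background in 16 of 16 channels. Of these, 6 were higher in LIM and 6 in HER, with medians of 1.83 and 1.45. Of 8 fibroblast markers, 5 were higher and 1 lower in each comparison, with medians of 1.61 and 1.36, and *PDGFRA* was the lower one. *PAX7* was not analysed here. Of 3 leukocyte markers tested, 1 (*CD68*) was higher in each comparison, with medians of 0.10 and 0.21. Of 3 endothelial markers, none was called in LIM and 1 was lower in HER, and of 5 adipocyte markers 1 was higher and 1 lower in each. Of 8 markers of dividing cells, 3 were lower in LIM and 1 in HER, with medians of -0.48 and -0.71. The summed signal of the leukocyte list, on the scale of the arrays, was 4920 to 7890 in LIM and 4880 to 6380 in the HF channels beside it. The summed signal of the fibroblast list was 365000 to 789000 in LIM against 63800 to 228000 in HF. In HER it was 280000 to 547000 against 55400 to 155000 in HF. The sum of the adipocyte list went the other way, with 18000 to 63700 in LIM against 119000 to 150000 in HF. In HER it was 38400 to 51700 against 55100 to 112000 in HF. The median log2 ratio of the adipocyte list was 0.96 in LIM and -0.39 in HER. Its genes did not share a direction. *CEBPA* was called lower (-1.94 in LIM and -0.81 in HER) and *PLIN1* higher (1.06 and 1.03). *PPARG* (-0.46 and -0.70), *FABP4* (0.96 and -0.39), and *LPL* (1.32 and 0.59) were not called. A sum of signals weighs the brightest genes most, so it does not describe the list as a set. In RNA of a whole culture, fewer cells of a type and less RNA per cell cannot be told apart. The part of these markers in the reference gene ratios was not tested.

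The choice of reference gene changes every ratio taken against it, and this was read on the arrays for the genes that the study measured by qPCR against *GAPDH*. Of 7 such genes, 6 were found, all of muscle development. *MYH3*, the embryonic myosin heavy chain, was 4.30 ± 0.69 in LIM and 4.05 ± 0.47 in HER by the array normalization alone, and 4.12 ± 0.65 and 3.78 ± 0.61 relative to *GAPDH* probe 1. Relative to the 6 probes in turn, its mean lay between 3.44 (*B2M*) and 4.53 (*TBP*) in LIM and between 3.57 (*B2M*) and 4.44 (*TBP*) in HER. By construction, this order of the references is the same for every target. For *MYH3*, the result was less open to the choice of reference in its sign. *MYH3* was above zero on 8 of 8 arrays with each reference, and the same held for *MYL2*, *DES*, and *MYF5*, a ventricular and slow-muscle myosin light chain, the intermediate filament desmin, and an early myogenic transcription factor.

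*MYF5* was 2.41 in LIM and 1.38 in HER by the array normalization, and 2.24 and 1.11 relative to *GAPDH* probe 1. *MYOG*, the transcription factor myogenin, was 2.04 and 2.07, and 1.86 and 1.79 relative to *GAPDH* probe 1, and relative to *B2M* it was above zero on 7 of 8 arrays, with an SD of 1.14 in LIM where the array normalization gave 0.51. The gene nearest to zero was *ERBB3*, a receptor tyrosine kinase. It had 1.54 ± 0.71 in LIM and 0.65 ± 0.17 in HER by the array normalization. In HER it was 0.37 ± 0.33 relative to *GAPDH* probe 1, 0.67 ± 0.40 relative to probe 3, 1.04 ± 0.29 relative to *TBP*, and 0.16 ± 0.68 relative to *B2M*. Relative to *B2M* it was above zero on 6 of 8 arrays, and relative to *SDHA* on 7 of 8.

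**Figure D4:**
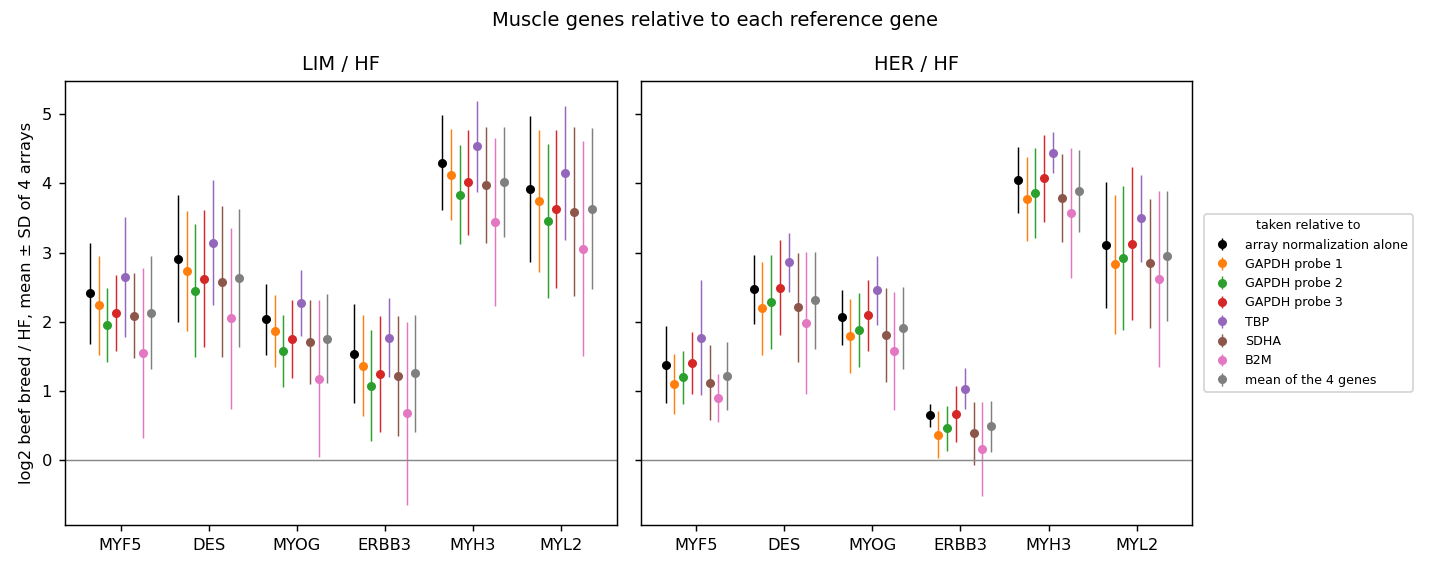
Log2 ratio of beef breed over HF (vertical axis, mean ± SD of 4 arrays) of 6 muscle genes, in LIM and HER, by the array normalization alone and relative to each reference gene probe or to the mean of the 4 genes on the same array. *TBP* gives the highest and *B2M* the lowest mean of each gene, and *ERBB3* in HER runs from 0.16 to 1.04. The order of the references is the same for every gene by construction, since the mean of the reference is subtracted.

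The same change of reference was applied to the whole array, each array being centred on the log2 ratio of one gene, a step chosen after seeing the data. By the array normalization, 46.7% of the calls in LIM were higher (2829 higher and 3227 lower) and 42.6% of those in HER (1833 higher and 2469 lower). Centred on *GAPDH* probe 1, 1907 probes were higher and 4238 lower in LIM, and 1021 higher and 5516 lower in HER, so that the higher share was 31% and 15.6%. Centred on *TBP*, the balance turned the other way, with 70.2% higher in LIM (3201 against 1357) and 89.1% in HER (3178 against 389). *SDHA* gave 21.2% higher in both comparisons. *B2M* gave 5.8% higher in LIM (493 against 8000) and 15.5% in HER (416 against 2267). With the mean of the 4 genes, the higher share was 21.9% in LIM and 26.9% in HER. These splits follow by construction from the means and spreads of the reference genes given above.

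**Figure D5:**
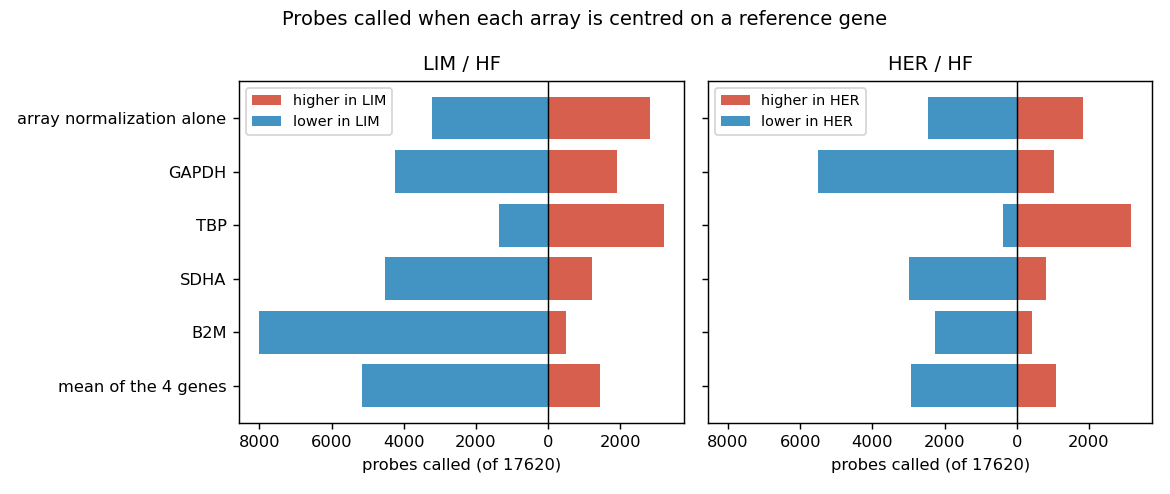
Number of probes called higher (red, to the right of zero) and lower (blue, to the left) in LIM and in HER relative to HF, of 17620 tested, with the arrays normalized as deposited or centred on one reference gene or on the mean of the 4. *TBP* gives more higher than lower calls, and each other reference gives more lower calls.

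The genes most like each reference gene over the 8 arrays were found by Pearson's correlation of log2 ratios over 6804 other named genes, as a description. They were *P2RY1* (r = 0.92) and *DGCR6L* (0.907) for *GAPDH* probe 1, *TGIF1* (0.965) and *ABCF2* (0.951) for *TBP*, *SELENOP* (0.958) and *IFNGR1* (0.955) for *SDHA*, and *TCAF2* (0.935) and *IL20RB* (0.921) for *B2M*. The points are 8 arrays that share HF bulls, slides, and dyes. These values are the highest of 6804 correlations for each gene, so they can arise from the search alone. None was tested. *SELENOP* was far from zero itself, with 1.24 in LIM and 1.11 in HER, whereas *ABCF2* was at 0.01 and -0.15.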

How the data were processed

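Gene expression was measured on 8 two-color arrays, and the labels gave the breed, dye, and replicate number of each sample. The authors deposited Feature Extraction 10.7.3.1 output, with the median intensity of each spot in both colors and the software's own background-subtracted and dye-normalized log10 ratio, red over green. The deposited series table holds the same log10 ratio (355256 of 355256 values equal).

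The log10 ratio was turned to log2 beef breed over HF, control and outlier spots were left out, and spots of a probe were averaged. Intensities served for brightness. Probes that reached that mark (well above background) in 4 or more of 16 channels were fitted with limma 3.58.1 in R 4.3.3 (lmFit, eBayes). The fit had a mean for LIM and a mean for HER over all 8 arrays. The beef effect was the average of these means in the same fit, and the dye term was their remaining difference. Breed and slide lie with the dye, so this term cannot be told apart from them. The steps were tested on simulated data. Names came from RefSeq accessions (7793 matched), since the scanner files hold no gene names, and no coordinates are given because the array design rests on another assembly. The probe sequences were not used here. A gene with several probes was represented by the brightest. Limma p-values rest on a common estimate of the spread per probe, pooled within LIM and within HER over the 8 arrays and moderated by limma. They take the arrays as independent, although the HF bulls were shared.

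The genes and lists were chosen with earlier results of these data known. From each list, up to 3 genes called in both comparisons with one sign on 8 of 8 arrays were named by size, and from the reference genes also the 3 of lowest SD. Alternatives covered background correction, centring, scaling, the filter on dim probes, the methods' t-test, array weights, the replicate block, the mean over probes, and leaving out each array.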

Additional observations from a re-analysis of the deposited data

Results flagged for a closer look

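Values that lay apart from the other 3 of their group of 4 were looked for in 36 groups, for the log2 ratio and for both channels of each probe, and 3 were found. Chance alone gives about 1 in 20 groups. The log2 ratio of *GAPDH* probe 1 was 0.32 on LIM replicate 3, above the 0.12 to 0.13 of the other LIM arrays. The HF channel of *GAPDH* probe 2 on LIM replicate 4 had a log2 signal of 5.49 relative to the 75th percentile of the channel, where the lowest LIM array had 4.91. The HER channel of *GAPDH* probe 3 on HER replicate 3 had 4.86, where the lowest HER array had 4.41.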

How the results depend on the processing

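The count of genes called in LIM (1 of 4) fell to 0 with normexp and loess on the backgrounds as measured (1 with outlying backgrounds replaced), with scaling between arrays, without a filter on dim probes, and with the methods' t-test after the adjustment added here, and rose to 2 with array weights. With 1 array left out it was 0 to 1, and 0 without HER replicate 2 or 3 or LIM replicate 2 or 3. In HER the count of 0 rose to 1 at an unadjusted p and with array weights, and stayed between 0 and 0 with 1 array left out. For the beef effect the count of 1 became 0 with normexp and loess on the backgrounds as measured (1 with outlying ones replaced) and 2 with array weights, and 0 to 1 with 1 array left out (0 without HER replicate 1 or LIM replicate 3). With normexp and loess, without the filter, and with the methods' t-test, 1 gene lay within 1.3-fold in LIM. Same-numbered arrays correlated at -0.236, 0.129, 0.305, and 0.54, and only number 4 correlated best with its own number. The labels do not tie the numbers, so they were not taken as pairs. With the replicate number as a block 1 gene was called in LIM, 0 in HER, and 1 for the beef effect, as without it, and 4 of the 16 HER calls of the named list genes were lost. Of the values of the 6 probes under the alternatives, 471 kept direction and side of the threshold, 17 became weaker, 9 stronger, and 11 changed sign. With normexp and loess on the backgrounds as measured, *GAPDH* probe 1 had -0.28 in HER and a LIM minus HER difference of 0.62, probe 2 had -0.31 and probe 3 -0.34 in HER, the beef effect of probe 3 was 0.00, and *RPS23* and *RPS15A* had -0.51 and -0.13 in HER. The LIM minus HER difference of *GAPDH* was 0.09 with outlying backgrounds replaced, 0.09 without background subtraction, and 0.16 as the mean over its probes. Probe 3 had 0.04 in HER with arrays centred on their median and -0.08 to 0.10 with 1 array left out (0.10 without HER replicate 4). The LIM minus HER difference of *SDHA* was -0.02 to 0.21 with 1 array left out (-0.02 without HER replicate 4, 0.00 without LIM replicate 1). *RPS23* in LIM had 0.00 with scaling and -0.05 without LIM replicate 1. The cause of these changes was not tested. All 6 probes were well above background in 16 of 16 channels.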
